A study of Homo sapiens with 36 samples.

Results

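Voltage-gated ion channels and the wider potassium channel families were followed through 11 days of differentiation of human embryonic stem cells. The genes were chosen by symbol, as the rows of the authors' value table that begin with KCN, SCN or CACN followed by the letters and number of a channel family, and by level, as those with a mean of at least 7 on the authors' log2 scale in at least 1 of 12 groups. Of 34687 rows, 136 had such a symbol and 41 of them reached that level. These 41 genes lie on 18 chromosomes. By role they were 12 of 40 voltage-gated potassium alpha subunits, 5 of 16 auxiliary potassium channel subunits, 3 of 8 potassium channels opened by calcium or sodium, 4 of 15 inward rectifiers, 7 of 15 tandem-pore potassium channels, 1 of 10 sodium alpha and 1 of 4 sodium beta subunits, 3 of 10 calcium alpha-1 subunits and 4 of 16 auxiliary calcium channel subunits. The last member, KCNQ1OT1, matches by its symbol only: it is a non-coding RNA transcribed antisense to the potassium channel gene KCNQ1.

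The measurements came from 36 Illumina expression beadchips, 3 for each group, of the human embryonic stem cell line WA09. The line was kept on a feeder layer from mouse and moved to matrigel for differentiation. DSi cultures (dual SMAD inhibition) received 100 nM LDN-193189, an inhibitor of BMP receptors, with 10 µM SB431542, an inhibitor of activin, Nodal and TGF-beta receptors, and were sampled on days 3, 6, 8 and 11. NC cultures (neural crest) received both inhibitors with 3 µM CHIR 99021, a GSK3 inhibitor that activates WNT signalling, and were sampled on the same days. BE cultures (melanocyte) received the same 3 compounds and, in addition, BMP4 at 25 ng/ml and endothelin 3 (EDN3) at 100 nM, and were sampled on days 8 and 11. Cells of days 0 and 1 formed a group each: their labels name LDN-193189 and SB431542 without a condition, and do not say whether the day 0 cells had yet been exposed, which touches each comparison with them. Among DSi arrays, 1 (day 3 replicate 1) has a title without the suffix that the others share. The labels do not say whether the replicates were separate cultures, so the p-values below measure only how far these arrays spread, and that spread may be technical.

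The mean signal of an array lay between 214.7 and 462.5 and 16055 to 19724 probes were detected on it. Arrays of a group correlated at 0.973 to 0.987. Marker genes followed the labels: of 10 pluripotency genes 8, 8 and 9 were lower at day 11 than at day 0 in DSi, NC and BE, 9 of 10 anterior neural genes were higher in DSi at day 11 than at day 0, 9 of 10 neural crest genes were higher in NC than in DSi at day 11, and 10 of 10 melanocyte genes were higher in BE than in NC at day 11. Day 11 NC cultures also held the highest neuronal signal: 9 of 9 tested neuronal marker genes were higher there than in DSi, and 9 of 9 were lower in BE than in NC. In such bulk RNA, fewer cells of a type and less RNA per cell cannot be told apart.

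Voltage-gated channels open when the membrane depolarises. Potassium alpha subunits assemble into pores that carry current out of the cell and end an action potential, sodium alpha subunits carry its upstroke, and calcium alpha-1 subunits couple voltage to calcium entry. Auxiliary subunits change the gating and surface delivery of these pores. Inward rectifiers and tandem-pore channels are not opened by depolarisation in this way and hold the resting potential of many cells, including cells that do not fire. Neurons and muscle are excitable, and channels of most of these families also work in cells that do not fire.

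Level patterns differed among the members, and the promoter windows of some are shown so that sequence can be set beside levels: KCNN2, high up to day 3, KCNMB1, high at day 0 and again in NC at day 11, KCNJ13, high in DSi from day 6, and KCNJ2, highest in BE. Each window is the 250 bases before the first listed RefSeq start, on the strand of the gene, in build GRCh38.p14. KCNN2 is on the plus strand (chr5:114361820-114362069), KCNMB1 on the minus strand (chr5:170389368-170389617), KCNJ13 on the minus strand (chr2:232776566-232776815) and KCNJ2 on the plus strand (chr17:70169282-70169531). The KCNN2 window lies inside the bounds of its gene in the RefSeq table (chr5:114055978-114496496). It precedes an internal start and not the outermost one. Capitals mark motifs searched on both strands, none of which holds another: CAGCTG, known as an E-box, TATAAA, known as a TATA box, GGGCGG, known as a GC box, and CTTTGA, the core bound by TCF/LEF factors.
KCNN2: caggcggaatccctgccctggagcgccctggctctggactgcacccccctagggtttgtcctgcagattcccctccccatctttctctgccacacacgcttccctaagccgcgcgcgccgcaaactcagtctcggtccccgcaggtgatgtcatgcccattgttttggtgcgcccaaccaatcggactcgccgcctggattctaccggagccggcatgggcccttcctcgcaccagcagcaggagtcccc
KCNMB1: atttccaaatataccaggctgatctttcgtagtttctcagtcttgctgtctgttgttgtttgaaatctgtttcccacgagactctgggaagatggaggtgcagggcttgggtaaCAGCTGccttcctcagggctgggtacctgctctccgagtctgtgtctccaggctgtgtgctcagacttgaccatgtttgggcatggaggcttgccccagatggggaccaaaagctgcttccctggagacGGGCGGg
KCNJ13: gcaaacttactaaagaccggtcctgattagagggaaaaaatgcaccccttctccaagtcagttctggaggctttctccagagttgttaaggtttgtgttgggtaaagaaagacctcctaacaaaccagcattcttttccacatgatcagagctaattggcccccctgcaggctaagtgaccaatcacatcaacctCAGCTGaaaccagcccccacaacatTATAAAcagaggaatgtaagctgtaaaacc
KCNJ2: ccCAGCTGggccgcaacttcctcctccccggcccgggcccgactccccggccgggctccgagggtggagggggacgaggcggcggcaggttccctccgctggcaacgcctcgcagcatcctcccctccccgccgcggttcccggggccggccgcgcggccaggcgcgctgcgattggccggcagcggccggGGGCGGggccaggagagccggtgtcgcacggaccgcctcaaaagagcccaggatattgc
The KCNJ13 window held 1 CAGCTG motif and 1 TATAAA motif, with a GC content of 45.2%, the lowest of the 31 members with a listed window. KCNJ2 held 1 CAGCTG motif and 1 GGGCGG motif with 77.6% GC, KCNMB1 held the same pair with 54.0% GC, and KCNN2 held no match with 64.8% GC. Over the 31 members, CAGCTG was found in 9 windows (29.0%, against 13.8% of 27305 RefSeq windows), GGGCGG in 67.7% (against 42.3%), TATAAA in 9.68% (against 11.1%) and CTTTGA in 2 windows (6.45%, against 11.4%). Median GC content was 64.8% in the members and 58.0% in all windows. These are matches of letters, and no factor's binding was measured.

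Levels are given from here on as log2 of the background-corrected, quantile normalized signal of 1 probe, a scale on which a gene below detection sits near 4.4 to 5.3. They are lower for dim genes than the authors' values that chose the members. On the scale of the rule the last members inside it were CACNA1S (7.01), KCNB2 (7.03), KCNT2 (7.03), KCNA1 (7.04), KCNJ4 (7.05), KCNK17 (7.05), KCNH8 (7.07), KCNMA1 (7.08), KCND1 (7.09), CACNG3 (7.11), KCND2 (7.13), KCNJ8 (7.15), KCNK3 (7.20), CACNA2D3 (7.21), KCNK13 (7.22), KCNAB1 (7.23), KCNA5 (7.24) and SCN4A (7.24). Among the first ones outside were CACNA1A (6.999), SCN1A (6.97), KCNA4 (6.97), KCNJ10 (6.95), KCNG3 (6.93), KCNA10 (6.93) and KCNA7 (6.90), followed within 0.25 of the threshold by KCNJ12, KCNMB3, KCNK10, CACNG7, KCNIP1, KCNJ6, SCN2B, KCNK7, KCNH4, KCNK4, CACNG4, KCNAB2, KCNH3, CACNG1, CACNA1B, KCNE3, KCNV1, KCNK9 and CACNG6. A gene counted as above background on an array where any of its probes had a detection p below 0.05. That probe need not be the one read for the level. All 41 members passed the detection filter, 7 were above background on all 36 arrays and 8 on fewer than 12. The rule takes a gene for being high somewhere: 5 members (KCNH6, CACNB3, KCNMB4, CACNA1H and KCNK5) reached the level in every group, 36 in some groups and 11 of those in 1 group, so a difference between groups is partly built into the choice and the counts below are descriptions. Of the 11, CACNA2D3 and KCNK17 reached it at day 0 and KCND2 and KCNJ8 at day 1. KCNK13 did in DSi at day 3, CACNG3 in NC at day 6 and KCNA1 in BE at day 8. At day 11, KCNJ4 did in DSi, KCNB2 and KCNH8 in NC and KCNMA1 in BE. A test that includes such a group draws on the values that chose the gene.

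The range of a member's 12 group means ran from 0.72 to 5.28, with a median of 1.78, and was at least 2 for 18 members. The mean was highest in a day 3 group for 13 members (31.7%, against 15.1% of 13764 tested genes that meet the same level), in NC at days 6 to 11 for 10 (24.4% against 22.8%), at day 0 or 1 for 8 (19.5% against 24.2%), in BE for 6 (14.6% against 17.7%) and in DSi at days 6 to 11 for 4 (9.76% against 20.2%).

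**Figure D1:**
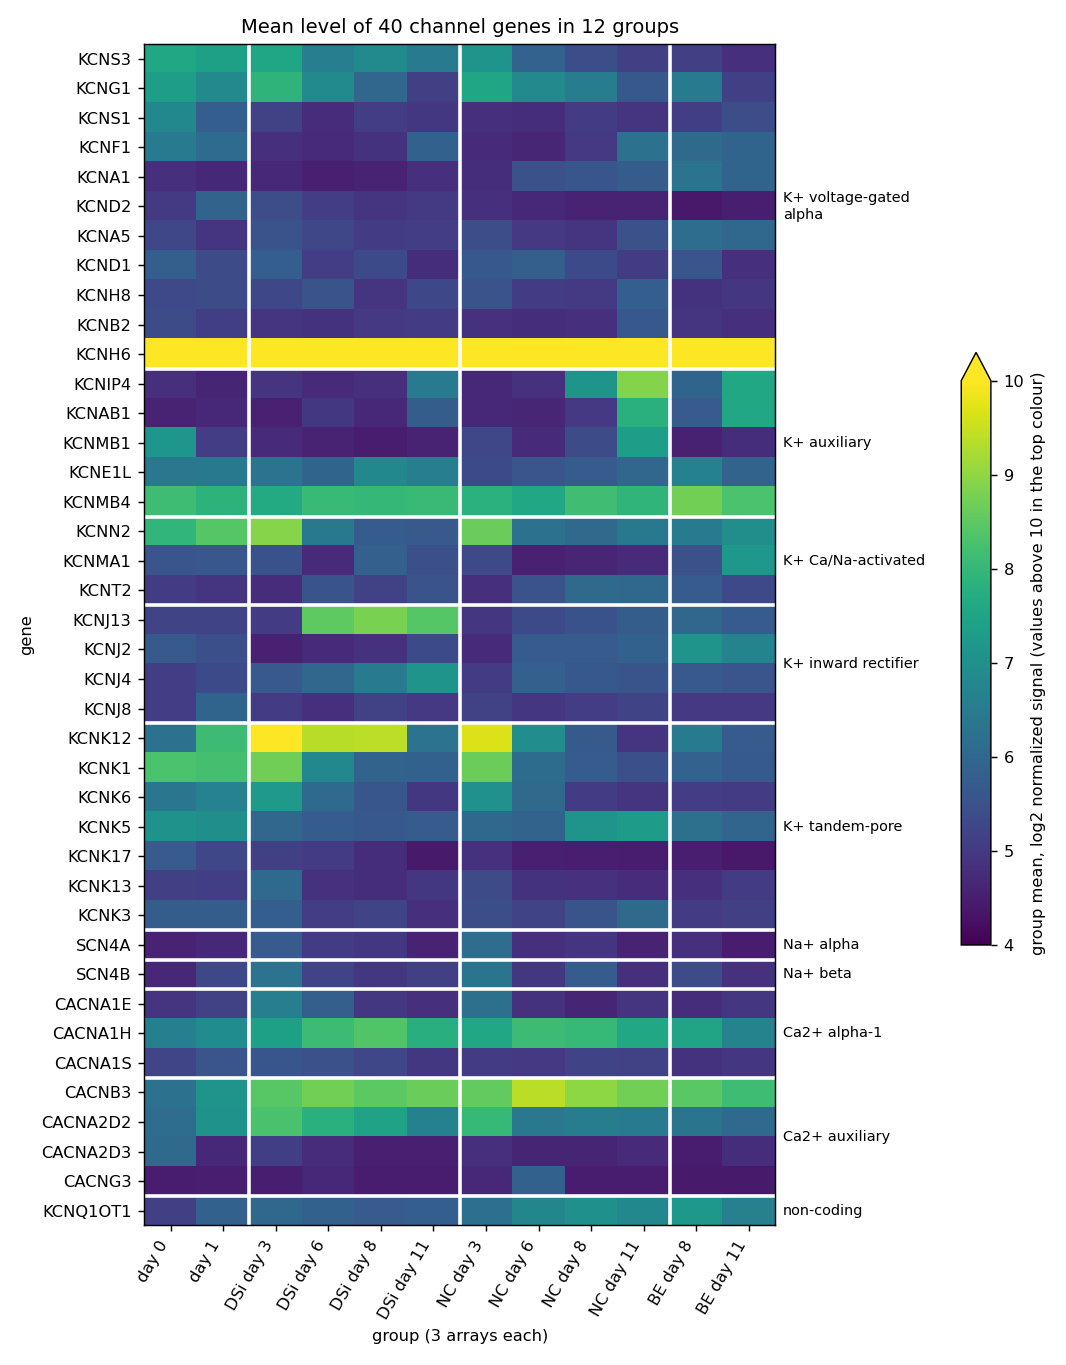
Mean log2 normalized signal (colour) of 40 channel genes (rows, grouped by role and ordered by range within a role) in the 12 groups of 3 arrays (columns, ordered by condition and day). KCNK12, KCNN2 and KCNK1 are bright around day 3, KCNJ13 is bright in DSi from day 6 with means of 8.52, 8.79 and 8.43, KCNIP4 in NC at day 11 with 8.89, and KCNH6 exceeds the colour scale in every group.

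KCNH6, of the ether-a-go-go family, was by far the brightest member and nearly the flattest. Its group means ran from 12.81 in BE at day 8 to 13.64 in NC at day 3. This level was read by 1 of 3 probes, while the group means of the other 2 lay between 4.42 and 5.04, and these were above background on 3 and 1 of 36 arrays. In the RefSeq table the next protein-coding gene on chromosome 17 is DCAF7, and whether the bright probe reads KCNH6 or another transcript was not tested. By limma's test, this probe was lower at day 11 than at day 0 in NC (-0.46, adjusted p = 0.00906) and BE (-0.44, adjusted p = 0.0117). The day 11 counts below include both calls. Both were lost with median scaling (adjusted p = 0.101 and 0.0517) and with the mean of the gene's probes (adjusted p = 0.200 and 0.0777). The other members with the smallest ranges, KCNB2, a delayed rectifier, and CACNA1S, the skeletal muscle L-type alpha-1 subunit, were close to background: their arrays spanned 4.53 to 6.17 and 4.54 to 6.51. The groups of either gene overlapped for the most part, and KCNB2 was above background on all 3 arrays in NC at day 11 alone, at 5.36, 6.01 and 5.62.

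The first comparison asked what changed between day 0 and day 1. The tandem-pore subunit gene KCNK12 rose, and KCNMB1, the beta-1 subunit of the large-conductance BK channel known from smooth muscle, fell to background. KCNK12 read 5.65, 6.44 and 6.60 at day 0 and 8.57, 7.53 and 8.26 at day 1, a rise of 1.89 (SE 0.34, adjusted p = 0.000190). This p-value, like the other adjusted ones here, is from limma's moderated test with Benjamini-Hochberg adjustment over all genes tested, and a gene passed with an adjusted p under 0.05. KCNMB1 read 7.11, 7.18 and 7.19 at day 0 and 5.004, 5.12 and 5.12 at day 1. No day 1 array was above background for KCNMB1, so its fall is a bound, at least 3.68-fold (adjusted p = 3.07e-08), taken against the dimmest detected signal of each array. The smooth and striated muscle marker list, 8 of whose 10 genes were tested, had a summed level of 14.38 to 14.56 at day 0 and 12.91 to 13.37 at day 1, with 3 genes lower and 1 higher. Its part in the KCNMB1 difference was not tested.

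The day 0 arrays also stood out for CACNA2D3, an alpha2delta subunit of calcium channels. It read 6.34, 5.74 and 6.17 at day 0 and between 4.39 and 5.37 on the other 33 arrays, and fell at least 1.74-fold by day 1 (adjusted p = 1.41e-06). CACNB3, the cytoplasmic beta subunit that brings calcium channels to the membrane, rose by 0.83 (SE 0.19, adjusted p = 0.00323), a call lost with median scaling (0.50, adjusted p = 0.345) or without day 1 replicate 1 (adjusted p = 0.0717). In all, 7 of 41 members (17.1%) passed, 4 higher and 3 lower, where 4.43% of 22635 genes tested (2.43% higher, 2% lower) and 6.87% of the genes at the same level passed. The count was 4 without day 0 replicate 1 or 2 or day 1 replicate 1 or 3. The remaining calls were KCNS1 (-1.0015, adjusted p = 0.0306), an electrically silent modulator subunit, KCND2 (0.89, adjusted p = 0.0330), an A-type potassium channel, and KCNJ8 (0.84, adjusted p = 0.0227), the pore of an ATP-sensitive potassium channel. KCND2 and KCNJ8 are members through day 1 alone and CACNA2D3 through day 0 alone. Their differences, and with them the count, are partly built into the choice. KCNS1 and KCNJ8 missed the threshold without any one of 5 of the 6 arrays and KCND2 without any one of 4, at adjusted p of 0.0546 to 0.234. KCND2 and KCNJ8 missed it with median scaling as well (adjusted p = 0.0651 and 0.113), and 1 member was then higher and 3 lower.

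By day 11, 9 channel genes, among them silent potassium subunits and tandem-pore channels, had fallen in all 3 conditions, and 3 auxiliary subunits had risen in all 3. That is 22% and 7.32% of the members, beside 7.99% and 7.11% of all genes and 12.4% and 11.6% of those at the same level. Compared with day 0, 6 members were higher and 12 lower in DSi (43.9%, against 27.5% of all genes and 42.1% of those at the same level), 8 higher and 12 lower in NC (48.8%, against 29.3% and 44.9%), and 8 higher and 13 lower in BE (51.2%, against 28.9% and 44.1%). Over all genes the higher and lower shares were 13.8% and 13.7% in DSi, 14.9% and 14.4% in NC, and 14.5% and 14.4% in BE. The shares of members that passed lie near those of genes at the same level. With the channel genes below the level of the rule added, 86 in all, 8 were higher and 12 lower in DSi, 16 and 13 in NC, and 9 and 13 in BE. The median difference of the members was -0.09, 0.01 and -0.29, beside -0.01, -0.02 and -0.03 over all genes. These comparisons share the 3 day 0 arrays. In all 3 conditions CACNB3, KCNAB1 and KCNIP4 were higher, and 9 members were lower: KCNS1, KCNS3, KCNG1, KCND1, KCNK1, KCNK6, KCNK17, KCNN2 and CACNA2D3. Of these, KCNK17 and CACNA2D3 are members through day 0 alone. Their falls, and with them the count of 9 and its share, are partly built into the choice.

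Among potassium alpha subunits, the silent modulators accounted for 3 of those 9. These subunits do not form a channel alone and join pores of the delayed rectifier type. KCNS3 read 7.26, 7.63 and 7.83 at day 0, 6.94, 6.71 and 5.67 in DSi at day 11, 5.28, 5.31 and 4.82 in NC, and 4.70, 4.88 and 4.81 in BE. Its fall was 1.13 in DSi (SE 0.26, adjusted p = 0.000639), 2.43 in NC (SE 0.26, adjusted p = 2.00e-10, 2 of 3 arrays above background), and in BE, where no array was above background, at least 5.47-fold. The day 0 arrays lay above all day 11 arrays.

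KCNG1 read 7.67, 7.41 and 6.92 at day 0, and 5.39, 4.99 and 5.05 in DSi, 5.59, 5.68 and 5.66 in NC and 5.22, 5.44 and 4.75 in BE at day 11. Its differences from day 0 were -2.19, -1.69 and -2.20 in that order (SE 0.32 each), with adjusted p from 2.47e-07 to 3.19e-05. The other KCNG1 probes were above background on 0 and 2 of 36 arrays. KCND1, an A-type channel, was at background on every array of day 11 and fell at least 1.57-fold in DSi, at least 1.60-fold in NC and at least 1.61-fold in BE, the call in NC being lost without any one of 4 of the 6 arrays (adjusted p = 0.0761 to 0.113) and with the authors' values (adjusted p = 0.0581). KCNS1 was at background on every DSi and NC array of day 11, with falls of at least 3.13-fold and at least 3.19-fold.

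Among auxiliary potassium subunits, KCNIP4 and KCNAB1 were near background early and appeared late. KCNIP4 encodes a calcium-binding modulator of A-type channels. It read between 4.54 and 5.18 on the 21 arrays up to day 3, of day 6, and of DSi at day 8. It then read 7.21, 7.27 and 6.80 in NC and 5.94, 6.25 and 5.58 in BE at day 8, and 5.94, 6.29 and 7.19 in DSi, 9.05, 8.85 and 8.77 in NC and 7.72, 7.11 and 7.99 in BE at day 11. By the mean NC was the highest and DSi the lowest condition at day 11, and all late arrays lay above all early ones. The rise from day 0 to day 11 was 1.63 in DSi (SE 0.27, adjusted p = 2.68e-06), 4.05 in NC (SE 0.27, adjusted p = 5.12e-17) and 2.76 in BE (SE 0.27, adjusted p = 7.92e-12), where 1 day 0 array was above background. The smallest difference among its 3 detected probes was -0.03 in DSi, 0.06 in NC and -0.02 in BE. The probe read for its level was above background on 17 of 36 arrays, and any of its 6 probes on 21.

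KCNAB1 encodes a beta subunit of Shaker-type channels from the aldo-keto reductase family. On the 24 arrays other than those of day 11 and of BE at day 8, it read 4.48 to 5.38. It read 5.51, 5.81 and 5.83 in BE at day 8, 4.82, 6.10 and 6.37 in DSi at day 11, 7.53, 7.77 and 8.12 in NC, and 7.78, 7.58 and 7.37 in BE. Against day 0, where no array was above background, it rose at least 1.52-fold in DSi, at least 6.24-fold in NC and at least 5.34-fold in BE (adjusted p = 0.000386, 4.10e-14 and 4.15e-13). The other detected KCNAB1 probe gave differences of 0.15, 0.03 and 0.17. DSi replicate 1 stayed within the range of the early arrays, and the DSi call was lost with the authors' values (adjusted p = 0.179).

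**Figure D2:**
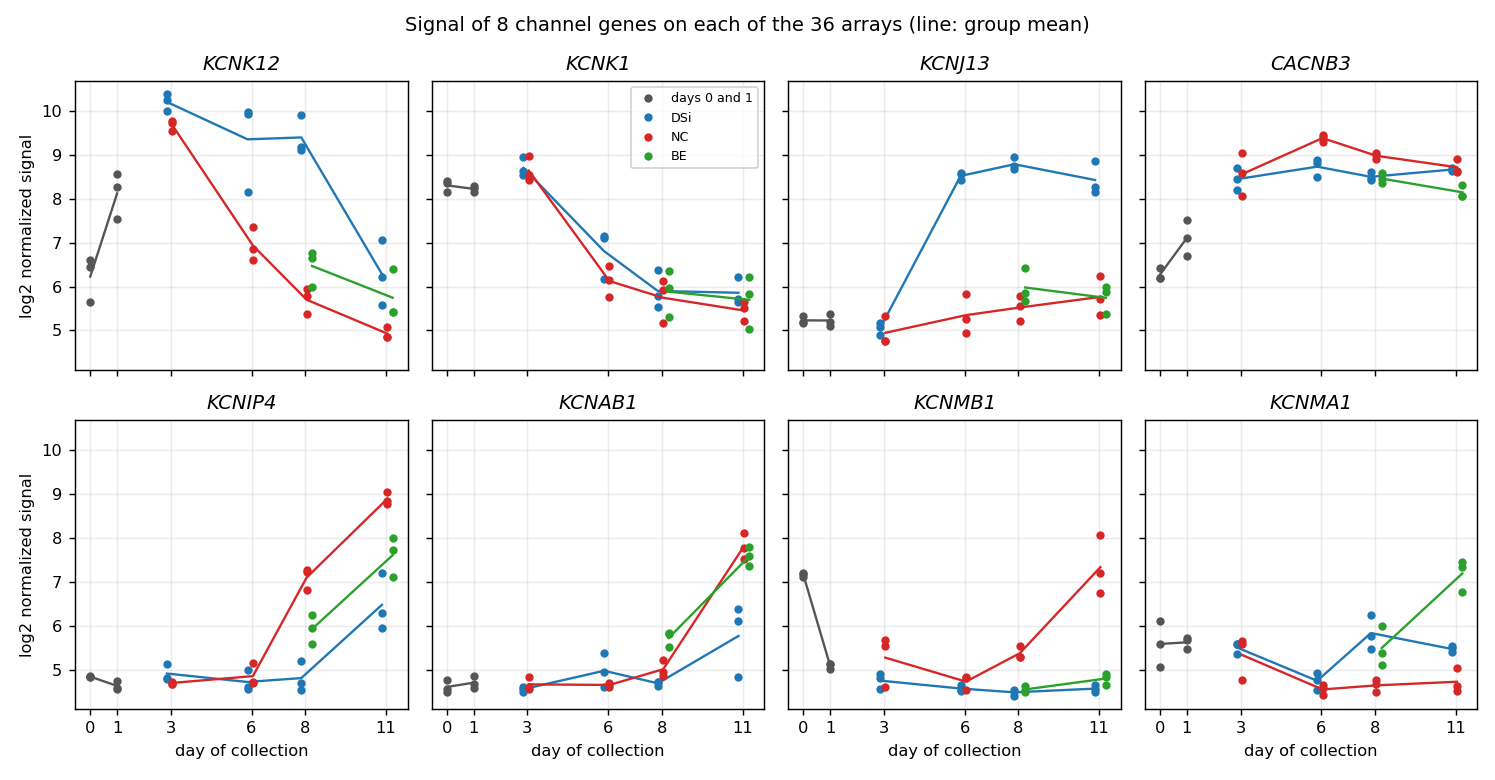
Log2 normalized signal (y axis) against day of collection (x axis) for 8 members, with a point for each array and a line through the group means, coloured by condition. KCNK12 and KCNK1 decline after day 3, KCNJ13 separates DSi from the other conditions, KCNIP4 and KCNAB1 rise late, KCNMB1 is high at day 0 and in NC at day 11, and KCNMA1 stands apart in BE at day 11.

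Of 7 tandem-pore channels, 5 were lower at day 11 than at day 0 in DSi and 4 each in NC and BE, and 0 were higher. Of all genes at the same level, 20.8% were lower in DSi, 21.9% in NC and 21.9% in BE. KCNK17, lower in each condition, is a member through day 0 alone, so these counts are partly built into the choice. KCNK1, a weakly rectifying member, read 8.16, 8.40 and 8.36 at day 0 and 8.54, 8.95 and 8.62 in DSi and 8.53, 8.97 and 8.43 in NC at day 3. By day 6 it read 7.15, 7.11 and 6.16 in DSi and 6.48, 6.14 and 5.76 in NC, and on the 18 arrays of days 8 and 11 between 5.03 and 6.37. NC and DSi differed at day 11 by -0.40 (95% interval -0.99 to 0.18). Its differences from day 0 were -2.45 in DSi, -2.85 in NC and -2.61 in BE (SE 0.29 each, adjusted p = 2.54e-09, 3.97e-11 and 4.51e-10).

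KCNK6 followed at a lower level, at 5.93 to 7.30 on the 12 arrays up to day 3 and 4.66 to 6.46 on the other 24. KCNK17, an alkaline-activated member, was above background on 7 of 36 arrays and fell at least 1.47-fold in DSi, at least 1.499-fold in NC and at least 1.51-fold in BE. These falls are from day 0, the group through which alone KCNK17 is a member, and are partly built into the choice. KCNK12 rose first: after 10.38, 9.99 and 10.24 in DSi and 9.77, 9.54 and 9.72 in NC at day 3, it stood at day 11 at 7.06, 6.21 and 5.59 in DSi, 4.85, 5.09 and 4.85 in NC and 5.41, 6.39 and 5.43 in BE. In NC it fell at least 2.14-fold against day 0 (adjusted p = 0.00253, or 0.113 with the authors' values), while DSi differed by 0.06 (95% interval -0.63 to 0.75) and BE by -0.48 (95% interval -1.17 to 0.21).

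Among potassium channels opened by calcium, 1 was lower in all 3 conditions and another was higher in BE and lower in NC. KCNN2, a small-conductance channel, read 7.80 to 9.33 on the 12 arrays up to day 3 and 5.15 to 7.02 on the 24 later ones. It fell by 2.29 in DSi (SE 0.25, adjusted p = 3.89e-10), 1.53 in NC (SE 0.25, adjusted p = 3.44e-06) and 0.99 in BE (SE 0.25, adjusted p = 0.00176). KCNMA1, the pore of the BK channel, read 5.59, 5.05 and 6.11 at day 0, 5.54, 5.48 and 5.39 in DSi, 4.50, 4.62 and 5.04 in NC and 7.34, 6.78 and 7.45 in BE at day 11. In BE it rose by 1.61 (SE 0.26, adjusted p = 3.00e-06), and in NC, where no array was above background, it fell at least 1.37-fold (adjusted p = 0.00957). The call in NC was lost without day 0 replicate 3 (adjusted p = 0.126) or NC replicate 1 (adjusted p = 0.0542), and with the authors' values (adjusted p = 0.0951). In DSi KCNMA1 differed by -0.11 (adjusted p = 0.823). KCNMA1 is a member through BE at day 11 alone, so its rise there is partly built into the choice. The other KCNMA1 probes were above background on 0 of 36 arrays.

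Of 4 inward rectifiers, 2 were higher at day 11 than at day 0 in DSi, 0 in NC and 1 in BE, and 0 were lower. Of all genes, 13.8%, 14.9% and 14.5% were higher. Of 13764 genes at the same level, 2936 were higher in DSi, 3172 in NC and 3058 in BE. KCNJ13, known from the retinal pigment epithelium and choroid plexus, read 5.17, 5.32 and 5.20 at day 0 and 8.85, 8.27 and 8.16 in DSi at day 11, a rise of 3.20 (SE 0.26, 2 of 3 day 0 arrays above background, adjusted p = 5.88e-14). In the RefSeq table it lies within the bounds of another gene, GIGYF2. KCNJ4, a neuronal inward rectifier, read 7.25, 6.78 and 7.28 in DSi at day 11 and 4.69 to 6.61 on the other 33 arrays, and rose by 2.02 in DSi (SE 0.28, 1 of 3 day 0 arrays above background, adjusted p = 9.94e-08). The other KCNJ4 probes were above background on 2 and 0 of 36 arrays. KCNJ4 is a member through DSi at day 11 alone, so its rise is partly built into the choice. KCNJ2, the strong inward rectifier of muscle and other tissues, rose by 1.00 in BE (SE 0.29, adjusted p = 0.00586, or 0.0525 without BE replicate 2).

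The next comparisons asked how NC differed from DSi, that is, with CHIR 99021 and without it, on the same day. At day 3 no member passed in limma's test (0 of 41, against 0.49% of all genes, 0.269% higher and 0.221% lower, and 0.763% of those at the same level), with 1 higher and 4 lower at an unadjusted p under 0.05, and 1 passed, lower in NC, without NC replicate 1. Of the 4, KCNE1L (named KCNE5 in RefSeq), a small single-pass subunit of the KCNE family, differed most (-0.93, 95% interval -1.45 to -0.40, adjusted p = 0.128). From day 6 KCNJ13 and KCNK12 were lower in NC and KCNA1, a Shaker-type delayed rectifier, was higher, and these 3 passed in the same direction on days 6, 8 and 11. The share of all genes that did so on all 3 days was not counted. KCNA1 was lost at day 11 without NC replicate 1 (adjusted p = 0.0717) and KCNK12 at day 11 without DSi replicate 1 (adjusted p = 0.0891), with an offset of 50 (adjusted p = 0.0529) and with the authors' values (adjusted p = 0.159). By day 11 auxiliary subunits led the genes higher in NC: KCNMB1, KCNIP4 and KCNAB1.

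At day 6, 4 members were higher and 4 lower (19.5%, against 5.39% of all genes, 2.69% higher and 2.71% lower, and 8.49% of those at the same level). KCNJ13 read 8.56, 8.58 and 8.42 in DSi and 5.26, 5.84 and 4.95 in NC. The difference was -3.17 (SE 0.26, adjusted p = 8.72e-13, 2 of 3 NC arrays above background). KCNK12 read 9.97, 9.93 and 8.16 in DSi and 6.86, 7.35 and 6.60 in NC, a difference of -2.42 (SE 0.34, adjusted p = 1.61e-06). In neither gene did the groups overlap, although DSi replicate 3 of KCNK12 lay well below the other DSi arrays.

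Calcium channel auxiliary genes also parted at day 6. CACNA2D2, an alpha2delta subunit, read 7.85, 8.26 and 7.30 in DSi and 6.39, 6.55 and 6.27 in NC (-1.40, SE 0.30, adjusted p = 0.00151). CACNG3, a relative of the calcium channel gamma subunit that serves AMPA receptors, was above background on the 3 NC arrays of day 6, at 6.00, 5.71 and 5.91, and at 4.34 to 5.07 on the other 33. It was at least 1.62-fold higher in NC (adjusted p = 5.09e-08). CACNG3 is a member through NC at day 6 alone, so this difference is partly built into the choice. KCNA1 was at least 1.25-fold higher (adjusted p = 0.00385) and KCNJ2 at least 1.495-fold (adjusted p = 0.0241). Without NC replicate 3 the count fell from 8 to 4: KCNJ2 (0.64, adjusted p = 0.301) and KCNA1 (0.79, adjusted p = 0.0553) were among those lost, and KCNJ2 was lost without 3 other arrays too, of DSi replicate 1 or 2 or NC replicate 1, at adjusted p of 0.0705 to 0.0911.

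At day 8, 6 members were higher and 5 lower (26.8%, against 6.74% of all genes, 3.38% higher and 3.36% lower, and 10.7% of those at the same level). KCNK12 read 9.91, 9.11 and 9.17 in DSi and 5.78, 5.94 and 5.38 in NC, the widest gap between these conditions on the 4 days (-3.70, SE 0.34, adjusted p = 1.77e-11). KCNJ13 read 8.75, 8.67 and 8.94 in DSi and 5.79, 5.57 and 5.22 in NC (-3.26, SE 0.26, adjusted p = 1.90e-13). KCNIP4, at 4.69, 4.54 and 5.18 in DSi and 7.21, 7.27 and 6.80 in NC, was higher by 2.29 (SE 0.27, 1 of 3 DSi arrays above background, adjusted p = 7.56e-09).

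KCNK5, an acid-sensitive tandem-pore channel, was higher in NC by 1.45 (SE 0.30, adjusted p = 0.000630) and KCNS3 was lower (-1.43, SE 0.26, adjusted p = 0.000119). The antisense RNA KCNQ1OT1 was higher by 1.28 (SE 0.33, adjusted p = 0.00849). Its call was lost without NC replicate 2 (1.11, adjusted p = 0.0760). KCNE1L read 6.44, 6.80 and 7.13 in DSi and 5.72, 5.84 and 5.61 in NC (-1.07, SE 0.26, adjusted p = 0.00497, or 0.0617 without DSi replicate 3). KCNT2, a sodium-activated potassium channel, read 5.01, 5.11 and 5.34 in DSi and 6.13, 6.30 and 5.79 in NC (0.92, SE 0.26, adjusted p = 0.0190), a call lost without any one of 4 of the 6 arrays, with the authors' values (adjusted p = 0.174) and with the mean of its probes (adjusted p = 0.201). KCNQ1OT1, the antisense RNA, overlaps KCNQ1 in the RefSeq table. On the authors' scale the group means of KCNQ1OT1 ran from 6.81 to 7.84 and those of KCNQ1 from 6.52 to 6.60. Whether the KCNQ1OT1 probe also reads KCNQ1 was not tested.

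At day 11, 8 members were higher and 4 lower (29.3%, against 11.2% of all genes, 5.59% higher and 5.6% lower, and 17.2% of those at the same level). KCNMB1 was raised in NC alone of the day 11 groups, at 7.19, 8.07 and 6.74, against 4.48, 4.66 and 4.56 in DSi, where it was at background on every array. It was at least 4.50-fold higher in NC (adjusted p = 1.34e-12). NC at day 11 differed from day 0 by 0.17 (95% interval -0.31 to 0.65), and KCNMB1 read 4.40 to 5.67 on the 30 arrays outside these groups. KCNMB1 lies within the bounds of KCNIP1 in the RefSeq table. The neuronal list had a summed level of 13.44 to 14.05 in NC and 10.85 to 11.56 in DSi at day 11, where 1 of its 9 genes was above background on no array, and the sensory neuron list, with 6 of 8 tested genes higher in NC, 12.17 to 12.91 and 7.90 to 8.37. The muscle list lay at 13.12 to 13.60 in NC and 11.76 to 12.20 in DSi, with 2 of 8 tested genes higher. The part of these cell types in the channel differences was not tested.

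KCNIP4 was higher in NC by 2.41 (SE 0.27, adjusted p = 1.08e-09) and KCNAB1 by 2.04 (SE 0.26, 2 of 3 DSi arrays above background, adjusted p = 3.78e-08), though the other detected KCNAB1 probe gave -0.12. KCNK5 read 7.78, 7.24 and 6.96 in NC and 6.32, 5.34 and 5.57 in DSi (1.58, SE 0.30, adjusted p = 9.76e-05). KCNK3, an acid-sensitive tandem-pore channel too, read 6.27, 6.02 and 5.91 in NC and 4.76, 5.03 and 4.61 in DSi, where it was at background, and was at least 1.88-fold higher (adjusted p = 0.000515). On the DSi side, KCNJ13 (-2.66, SE 0.26, adjusted p = 4.44e-11) and KCNJ4 (-1.54, SE 0.28, adjusted p = 5.04e-05) were lower in NC, and the anterior neural list was as well, with 9 of 10 genes lower and summed levels of 10.38 to 10.64 in NC against 13.51 to 13.96 in DSi. KCNJ4 is a member through DSi at day 11 alone, so its difference is partly built into the choice.

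**Figure D3:**
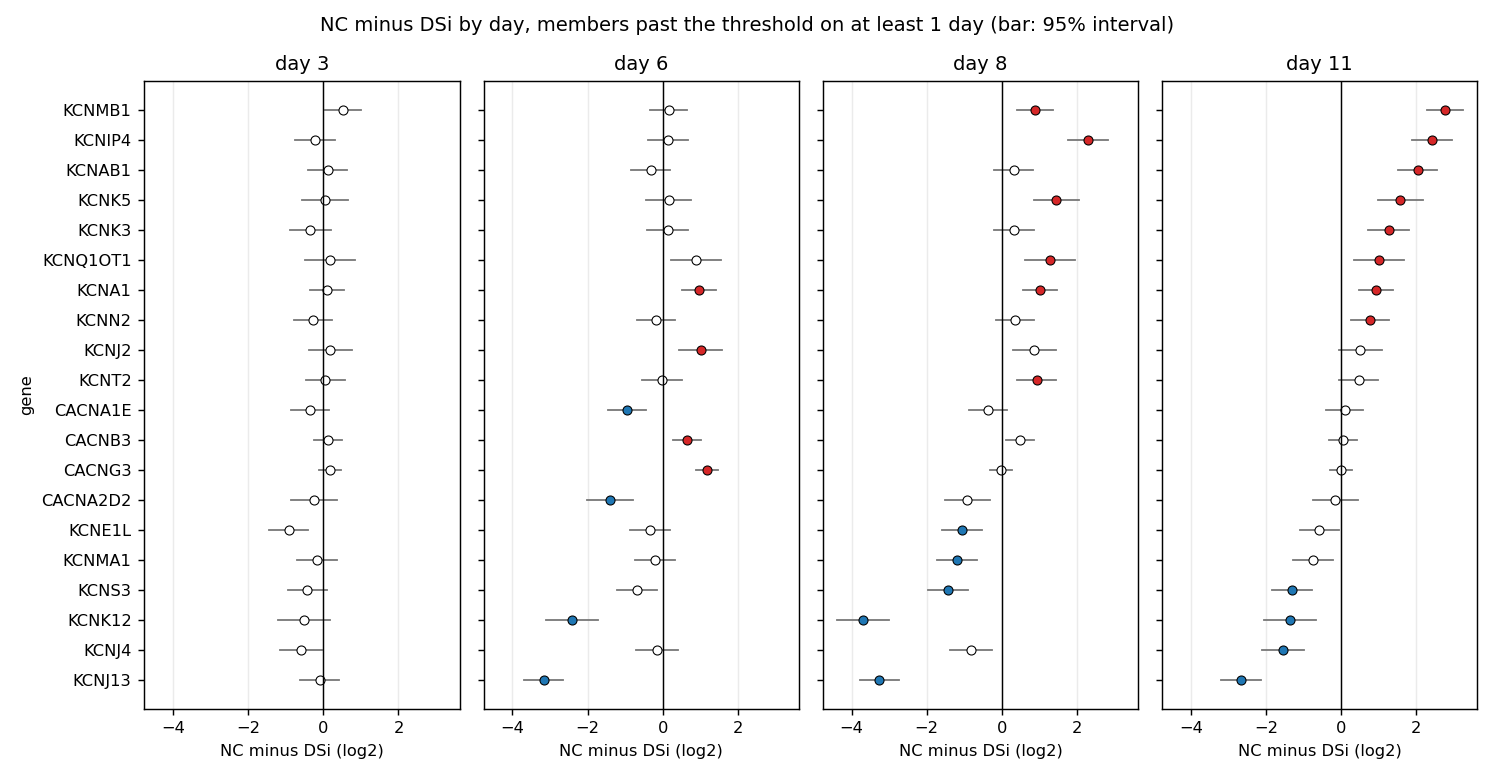
NC minus DSi on the log2 scale (x axis) for the 20 members (rows) past the threshold on at least 1 of the 4 days (panels), with 95% intervals not adjusted for multiple tests. Filled points passed the adjusted threshold, red higher and blue lower in NC, and no point is filled at day 3, while KCNJ13 and KCNK12 are blue on each later day.

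Whether the gap between NC and DSi changed from day 3 to day 11 was tested directly as the difference of both gaps. For 6 of 41 members it did (14.6%, against 5.5% of all genes, 2.93% towards NC and 2.58% towards DSi, and 8.57% of those at the same level). The gap grew towards NC for KCNIP4 (2.63, SE 0.37, adjusted p = 1.47e-06), KCNMB1 (2.24, SE 0.34, adjusted p = 4.45e-06), KCNAB1 (1.93, SE 0.36, adjusted p = 0.000215), KCNK3 (1.62, SE 0.38, adjusted p = 0.00364) and KCNK5 (1.54, SE 0.42, adjusted p = 0.0174), and towards DSi for KCNJ13 (-2.56, SE 0.37, adjusted p = 1.60e-06). The call of KCNK5 was lost without NC day 11 replicate 1 (1.31, adjusted p = 0.0769), DSi day 11 replicate 2 (adjusted p = 0.0690) or DSi day 3 replicate 2 (adjusted p = 0.0596).

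The last comparison asked how BE differed from NC, that is, with BMP4 and EDN3 and without them. At day 8, 3 members were higher and 1 lower (9.76%, against 1.86% of all genes, 1.25% higher and 0.61% lower, and 2.93% of those at the same level). Median scaling gave 2 higher and 3 lower. KCNJ2 read 7.12, 7.03 and 7.15 in BE and 5.73, 5.55 and 5.86 in NC (1.39, SE 0.29, adjusted p = 0.00245). KCNA5, a Shaker-type delayed rectifier, read 6.14, 6.11 and 6.21 in BE and 5.02, 4.74 and 4.94 in NC, where it was at background, and was at least 2.03-fold higher (adjusted p = 0.000370). All 3 BE arrays of both genes lay above the NC arrays.

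KCNIP4 was lower in BE (-1.17, SE 0.27, adjusted p = 0.00682), a call lost without NC replicate 2 (adjusted p = 0.0620), without BE replicate 3 (adjusted p = 0.0871), and with the authors' values (adjusted p = 0.0649). KCNF1, a silent modulator, was higher by 1.10 (SE 0.30, 1 of 3 NC arrays above background, adjusted p = 0.0381) and was lost without any one of 5 of the 6 arrays and in 4 other settings, at adjusted p of 0.0566 to 0.297. The count of 4 was 2 without NC replicate 2 and 2 without BE replicate 3.

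At day 11, 1 member was higher in BE and 8 were lower (22%, against 8.85% of all genes and 13.6% of those at the same level), while 4.74% of all genes were higher and 4.12% lower. With median scaling 2 were higher and 7 lower. The member higher in BE was KCNMA1, at 7.34, 6.78 and 7.45 against 4.50, 4.62 and 5.04 in NC, where it was at background. It was at least 4.16-fold higher (adjusted p = 7.06e-10), and on no other array did it exceed 6.25. KCNMA1 reached the level of the rule in BE at day 11 alone, so this difference is partly built into its choice. Its auxiliary partner KCNMB1 went the other way, at 4.65, 4.90 and 4.83 in BE, at background, and 7.19, 8.07 and 6.74 in NC, at least 4.62-fold lower (adjusted p = 2.30e-11).

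KCNK5 (-1.36, SE 0.30, adjusted p = 0.00105), KCNIP4 (-1.28, SE 0.27, adjusted p = 0.000486) and KCNK3 (-0.93, SE 0.27, 2 of 3 BE arrays above background, adjusted p = 0.0194) were lower in BE too. With KCNMB1, these are the 4 genes that were higher in NC than in both other conditions at day 11. KCNAB1 was not: its BE and NC arrays overlapped (-0.23, 95% interval -0.75 to 0.29). The share of all genes higher in NC than in both other conditions was not counted. KCNK3 was lost without NC replicate 1 (adjusted p = 0.0953) or BE replicate 1 or 2 (adjusted p = 0.0508 and 0.0734), and without BE replicate 2 the count of 9 fell to 5. KCNB2, CACNB3 and CACNA1H were among the lower members as well, and the calls of all 3 were lost under at least 1 alternative. KCNB2 is a member through NC at day 11 alone, so its difference, and with it the count, is partly built into the choice. The neuronal list lay at 11.36 to 11.75 in BE against 13.44 to 14.05 in NC, and the melanocyte list at 14.40 to 14.69 against 12.09 to 12.68. Their part in these differences was not tested.

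**Figure D4:**
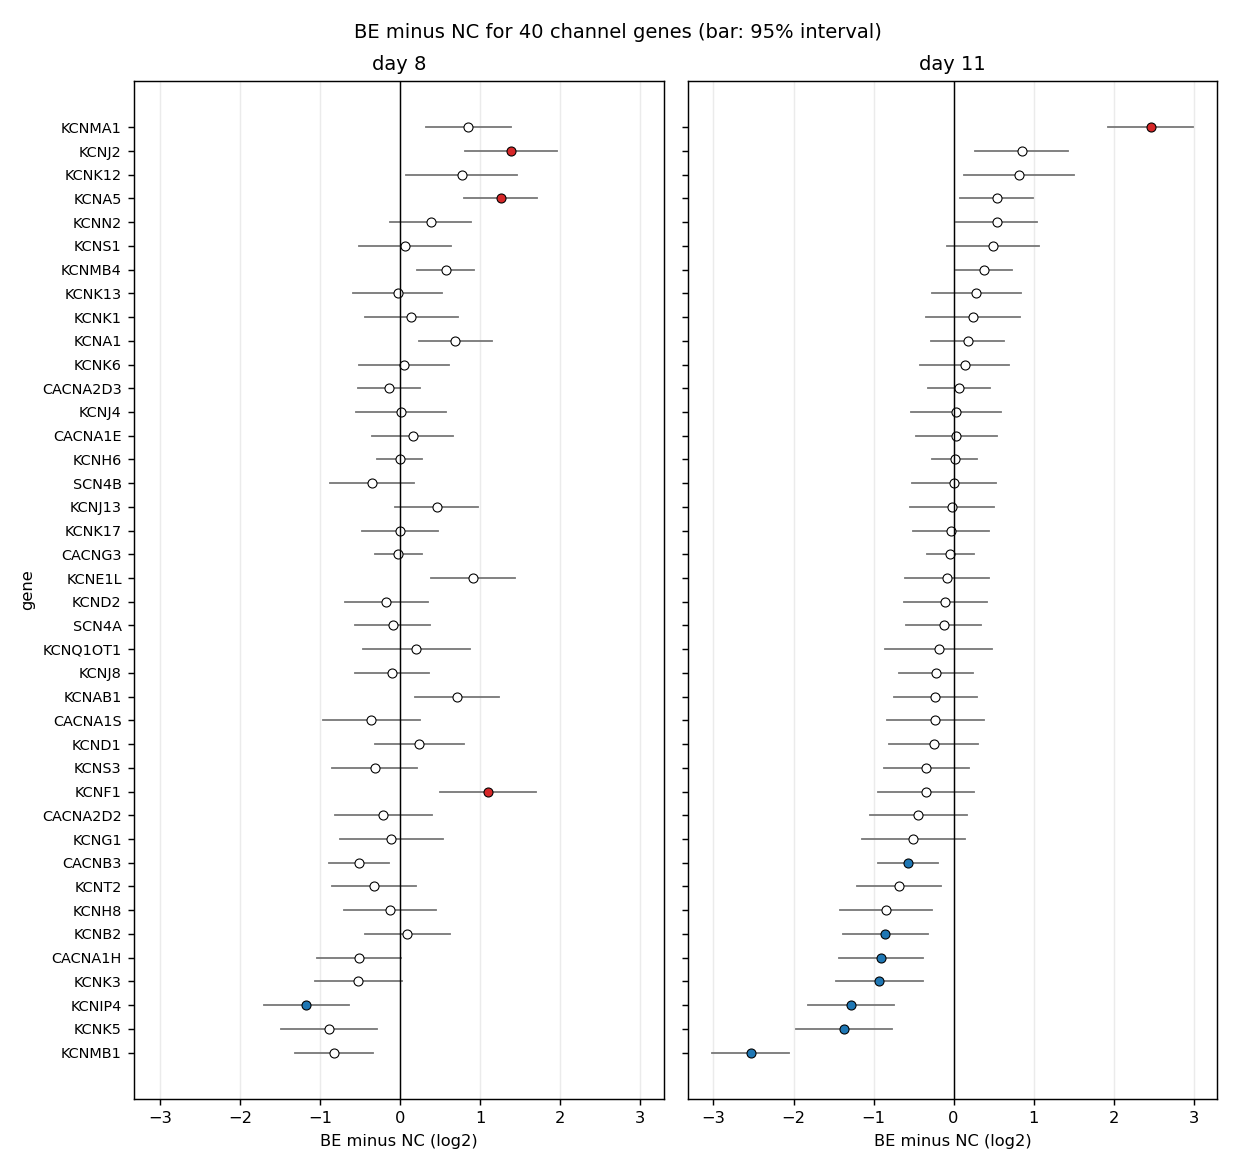
BE minus NC on the log2 scale (x axis) for 40 members (rows, ordered by the day 11 difference) at day 8 and day 11 (panels), with 95% intervals not adjusted for multiple tests. Filled points passed the adjusted threshold, red higher and blue lower in BE, and at day 11 KCNMA1 is the red point while 7 are blue.

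Sodium channel genes were few and dim. SCN4A, the skeletal muscle sodium channel, read 6.08, 4.94 and 6.16 in DSi and 6.52, 5.71 and 6.24 in NC at day 3, and 4.58, 4.42 and 4.77 at day 0. SCN4B, a beta subunit, read 5.89, 6.53 and 6.40 in DSi and 6.12, 6.48 and 6.36 in NC at day 3, and 4.70, 4.59 and 4.77 at day 0. All day 3 arrays of both genes lay above those of day 0, and neither gene passed in any of the 10 comparisons between groups, none of which sets day 3 against day 0.

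Among calcium channel genes, the ranges of group means were widest for the auxiliary subunits CACNB3 (3.11) and CACNA2D2 (2.23), followed by the pores CACNA1E (1.95) and CACNA1H (1.78). CACNB3 read 6.19, 6.43 and 6.20 at day 0, 7.51, 7.09 and 6.70 at day 1 and 8.05 to 9.44 on the other 30 arrays. It rose by day 11 by 2.39 in DSi, 2.45 in NC and 1.88 in BE (SE 0.19 each, adjusted p = 1.46e-14, 6.42e-15 and 2.03e-11), and NC differed from DSi at day 11 by 0.05 (95% interval -0.32 to 0.43). CACNA1H, a low-voltage-activated T-type pore, rose by 1.17 in DSi (SE 0.26, adjusted p = 0.000397) and 1.01 in NC (SE 0.26, adjusted p = 0.00219) and was lower in BE than in NC at day 11 (-0.90, SE 0.26, adjusted p = 0.0191). That call was lost without any one of 3 of the 6 arrays, with median scaling (adjusted p = 0.266), with the authors' values (adjusted p = 0.0546) and with the mean of its probes (adjusted p = 0.0613). CACNA1E, an R-type pore of neurons, read 6.91, 6.24 and 6.57 in DSi and 6.12, 6.16 and 6.39 in NC at day 3, against 4.90, 5.26 and 4.57 at day 0, and was above background on 14 of 36 arrays.

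In all, 35 of 41 members passed in at least 1 of the 10 comparisons and 6 in none, where 46.2% of all genes and 68.1% of those at the same level passed in at least 1. The 6 were CACNA1S, KCNH8, KCNK13, KCNMB4, SCN4A and SCN4B. KCNMB4, the BK beta subunit of neurons, was bright throughout, with group means of 7.60 to 8.73. For KCNH8, an ether-a-go-go family channel, BE and NC at day 11 differed by -0.84 (95% interval -1.41 to -0.27, adjusted p = 0.0544). KCNH8 is a member through NC at day 11 alone, so this difference is partly built into the choice. Of the 95 genes with a channel symbol below the level of the rule, 45 were tested. Members and these together, 86 genes, showed 1 higher and 14 lower in BE than in NC at day 11 (17.4%, against 8.85% of all genes, 4.74% higher and 4.12% lower).

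Proteins that place or tune these channels were counted from a list of 28 genes, of which 21 were tested. At day 11 against day 0, 6 were higher and 3 lower in DSi, 8 and 4 in NC, and 6 and 4 in BE, where 27.5%, 29.3% and 28.9% of all genes passed in either direction. LGI1, a secreted protein linked to potassium channels of axons, rose by 3.95, 3.66 and 4.52 (SE 0.31 each, adjusted p = 2.08e-14, 1.91e-13 and 2.62e-16). CNTN2, an axonal adhesion protein that clusters Shaker-type channels beside nodes, rose by 2.81 in NC (SE 0.40, adjusted p = 2.14e-07), was higher in NC than in DSi at day 3 (2.27, SE 0.40, adjusted p = 0.000882) and day 11 (1.89, SE 0.40, adjusted p = 0.000571), and was lower in BE than in NC at day 11 (-2.94, SE 0.40, adjusted p = 3.02e-07). FGF13, an intracellular regulator of sodium channels, fell by 1.83 in NC (SE 0.26, adjusted p = 1.22e-07) and 2.04 in BE (SE 0.26, adjusted p = 9.42e-09). Between NC and DSi, 1 and 0 genes were higher and lower at day 3, 1 and 0 at day 6, 2 and 2 at day 8 and 2 and 1 at day 11, where 0.49%, 5.39%, 6.74% and 11.2% of all genes passed. Between BE and NC the counts were 1 and 0 at day 8 and 1 and 3 at day 11, where 1.86% and 8.85% of all genes passed.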

How the data were processed

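Per the labels, total RNA of WA09 cells was labelled as biotinylated cRNA and hybridised to Illumina beadchips. The deposited probe table holds, per the file headers, a mean bead intensity for each of 47323 probes and a detection p-value against the negative controls of the array. The authors' second table holds log2 values for 34687 symbols, quantile normalized without background subtraction, as read from the values. The submitters' processing notes name Partek with no role. Neither table pairs probes with genes, so a symbol was tied to the run of neighbouring probes whose signals give its values on all 36 arrays (34452 symbols kept, 47010 probes, 99.34%).

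Background was removed from the intensities with limma's normexp model (offset 16, the control signals being inferred from the detection p-values), followed by quantile normalization and log2 transformation. A probe stayed if its detection p was below 0.05 on 3 or more arrays, and the brightest one stood for its gene (22635 genes). A mean per group was fitted over all 36 arrays (limma 3.58.1, R 4.3.3; 24 residual degrees of freedom, median residual SD 0.27), with trended empirical Bayes moderation and Benjamini-Hochberg adjustment over all genes. The number of arrays limits the precision. Where a gene was above background on no array of the lower group, the fold is a bound against, per array, the higher of its own signal and the lowest detected signal. The fit was tested on simulated data. Rows were matched to RefSeq (GRCh38.p14) by symbol: all 41 members matched, KCNE1L as KCNE5, and 31 had a promoter window, of which the first listed start was used (6 members list several).

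The members, gene lists, tests and rules were chosen with earlier results of these data known. By rule, levels by array were given for the 14 members with the largest range and the 3 with the smallest, and differences for up to 6 members of largest difference in each comparison. Other values were chosen after they were seen, to describe a role across conditions. Same-numbered arrays deviated together (correlation above 0.1 for all 3 pairs) in NC to DSi at days 3, 6 and 11 and in BE to NC at day 11. The titles of same-numbered arrays begin alike in all 12 groups, which ties them as a set, but what such a set stands for (a culture, a day or a batch) is not given in the labels. The main fit has no term for it. Alternatives were the mean of a gene's probes, median scaling, an offset of 50, no or a stricter detection filter, the authors' values, the replicate block and leaving out each array. The counts cover all 41 members, and the values of 1 member are not reported here.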

Additional observations from a re-analysis of the deposited data

Results flagged for a closer look

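The gap between NC and DSi differed between day 3 and day 11, by the test of the difference itself, for 6 channel genes: it changed by 2.63 for KCNIP4, 2.24 for KCNMB1, 1.93 for KCNAB1, 1.62 for KCNK3, 1.54 for KCNK5 and -2.56 for KCNJ13 on the log2 scale. Against day 0, KCNMA1 moved in opposite directions in NC and BE by day 11. In limma's test, the fall in NC was lost with the authors' values (adjusted p = 0.0951). It was also lost without day 0 replicate 3 (adjusted p = 0.126) or NC day 11 replicate 1 (adjusted p = 0.0542). The difference between BE and NC was tested directly and came to 2.47 (adjusted p = 7.06e-10, by limma's test). KCNMA1 was chosen through its level in BE at day 11, so this difference is partly built into the choice.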

How the results depend on the processing

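Each of 116 differences that passed the threshold was recomputed under the alternatives, and 0 changed direction. The call held for all 116 with the replicate block, for all 105 still tested under a stricter detection filter (p under 0.01 on at least 6 arrays), for 112 with a normexp offset of 50, 110 with the mean of a gene's probes, 109 without a detection filter, 104 with median scaling and 102 with the authors' values. Leaving out 1 array kept 643 of 732. With the replicate number as a block, the counts of members that passed were 8 for day 1 against day 0 (main 7), 14 for NC against DSi at day 8 (main 11), 6 and 10 for BE against NC at days 8 and 11 (main 4 and 9), 7 for the change of the NC to DSi gap (main 6), and as before elsewhere.

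The day 1 count of 7 was 4 with median scaling and 4 with the stricter filter. Leaving out 1 array gave 4 to 6 for day 1, 18 to 19, 17 to 19 and 20 to 21 for DSi, NC and BE at day 11 against day 0, 0 to 1, 4 to 8, 8 to 11 and 9 to 12 for NC against DSi at days 3, 6, 8 and 11, 2 to 4 and 5 to 8 for BE against NC at days 8 and 11, and 5 to 8 for the change of the gap. The cause was not tested. Median scaling moved the median difference of all genes to -0.16 for day 1, -0.10 for NC against DSi at day 3, -0.15 for BE against NC at day 8 and 0.13 for the change of the gap. Of all genes that passed for day 1, 54.8% were higher, and 9.87% with median scaling.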
